A study of Homo sapiens with 5 samples.

Results

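MDA-MB-231 cells kept at 1% O2 for 10 days were compared with the same cells kept at 1% O2 for 1 day, so that low oxygen was common to both and the length of exposure differed. MDA-MB-231 is an established human breast cancer cell line that lacks the hormone receptors and HER2 amplification and has mesenchymal features. Genes were taken into the comparison when the deposited normalized table listed them at 5 or more in either 1% O2 library, on the CPM scale (counts scaled to library depth) with TMM factors, which correct for library composition. This rule kept 11488 of 26475 rows. The study asked how acute and chronic hypoxia differ, and it held 1 library for each of 5 conditions: day 10 of 1% O2, day 1 of 1% O2, day 10 of 20% O2, day 1 of 20% O2, and reoxygenated cells that were first held 10 days at 1% O2 and then 10 days at 20% O2. The labels name no genetic change and no drug in any group. The 20% O2 libraries of day 10 and day 1 served as a guide to time in culture. The labels do not say whether the libraries came from separate cultures.

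Totals of the estimated counts were 9781980 at day 10 and 11189152 at day 1 of 1% O2, and ran from 7719797 to 12544953 over the 5 libraries, so that 1 read was worth 0.0816 to 0.126 CPM. All 11 markers of the line passed the level rule. Their sum was 4343 CPM at day 10 and 7096 CPM at day 1 of 1% O2, against 6112 and 6999 CPM at 20% O2. EGFR and S100A4 were higher at day 10 of 1% O2 than at day 1, and the other markers of the line were lower. The hormone receptor genes ESR1 and PGR stayed at or below 0.193 and 0.383 CPM in the day 10 and day 1 libraries. They belong to a set of 11 luminal breast markers, of which 6 passed the level rule. That set summed to 822 CPM at day 10 and 955 CPM at day 1 of 1% O2, mostly from the keratin genes KRT8, KRT18 and KRT19. Of the markers of other cells, the fibroblast genes summed to 15.2 CPM at day 10 and 7.04 CPM at day 1 of 1% O2, nearly all from COL1A1. The blood genes summed to 6.52 and 1.2 CPM. Of 4 endothelial genes 1 passed the level rule, KDR, with 8.15 CPM at day 10 and 9.54 CPM at day 1 of 1% O2. CD3E, HBB and COL1A2 were at 0 counts in both 1% O2 libraries. With 1 library per condition a difference has no replicate check and no p-value. Each log2 difference is therefore given with an exact 95% interval of the count ratio, which covers counting error only. Differences of at least 1 in size, which is 2-fold, are called higher or lower. In bulk RNA, fewer cells of a kind and less RNA per cell cannot be told apart.

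Cells sense oxygen through the hypoxia-inducible factors (HIFs), whose α subunits are hydroxylated by the EGLN enzymes and destroyed while oxygen is plentiful. When oxygen is low, the α subunits pair with ARNT, bind short DNA sites with the core ACGTG or GCGTG and raise genes for glucose use, blood vessel growth, pH control and matrix remodelling. HIF-1α is generally known for the early response, and HIF-2α, encoded by EPAS1, for a more lasting one.

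At 1% O2, 1087 genes were higher at day 10 than at day 1 (9.46% of 11488) and 777 were lower (6.76%), together 1864 genes (16.2%). In the 20% O2 pair the same genes gave 164 higher (1.43%) and 43 lower (0.374%), together 207 (1.8%). The level rule read only the 1% O2 libraries. A gene could enter by a high level at 1% O2 but not by one at 20% O2, which favours calls in the 1% O2 pair. Just above the limit, between 5 and 6, 73 of 280 genes were higher and 12 lower at 1% O2. All comparisons of the 2 pairs carry this limit. The spread of the log2 differences was correspondingly wider at 1% O2, with an SD of 0.81 against 0.36 at 20% O2. Past 4-fold, 274 genes were higher and 28 lower at 1% O2, against 18 higher and 3 lower at 20% O2. For 677 of the higher and 360 of the lower genes the whole counting interval lay beyond 2-fold. The balance of directions depended on scaling: 58.3% of called genes were higher with TMM factors and 74.5% with library totals, and the median over all 11488 genes was −0.09 with TMM factors and 0.05 with library totals. The share called also varied with level, at 26.8% of the 1340 genes whose higher value lay between 5 and 10, 12% of the 4050 between 50 and 200, and 23.9% of the 88 at 1000 or more. At the edge of the level rule, DNAJC12 was just inside with 53 counts at day 10 and 12 at day 1, and MTERF2 just outside with 52 and 54. The 1% O2 counts of every gene list below are to be read against 9.46% higher and 6.76% lower over all genes.

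The 1% and 20% O2 pairs share no library. Across the 11488 genes their differences had Pearson's r = 0.42 and Spearman's rho = 0.34, a description across genes that are not independent replicates. Of the genes higher at 1% O2, 134 were also 2-fold higher at 20% O2 (1.17% of all genes; 12.3% of the 1% list and 81.7% of the 20% list). Another 10 genes were lower in both pairs (0.087% of all; 1.29% of the 1% list and 23.3% of the 20% list), and 5 went in opposite directions (0.0435%). At 20% O2, 366 of the 1087 higher and 513 of the 777 lower genes lay within 0.25 of 0 on the log2 scale. Most genes did so: the interquartile range of all 11488 genes at 20% O2 was −0.17 to 0.18. Lying near 0 at 20% O2 is therefore no mark of a called gene. The 1087 higher genes lay above the other genes at 20% O2, with a median of 0.33 (interquartile range 0.06 to 0.66), and 857 of them were above 0. The 777 lower genes had a median of −0.12 (−0.27 to 0.03) there.

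**Figure D1:**
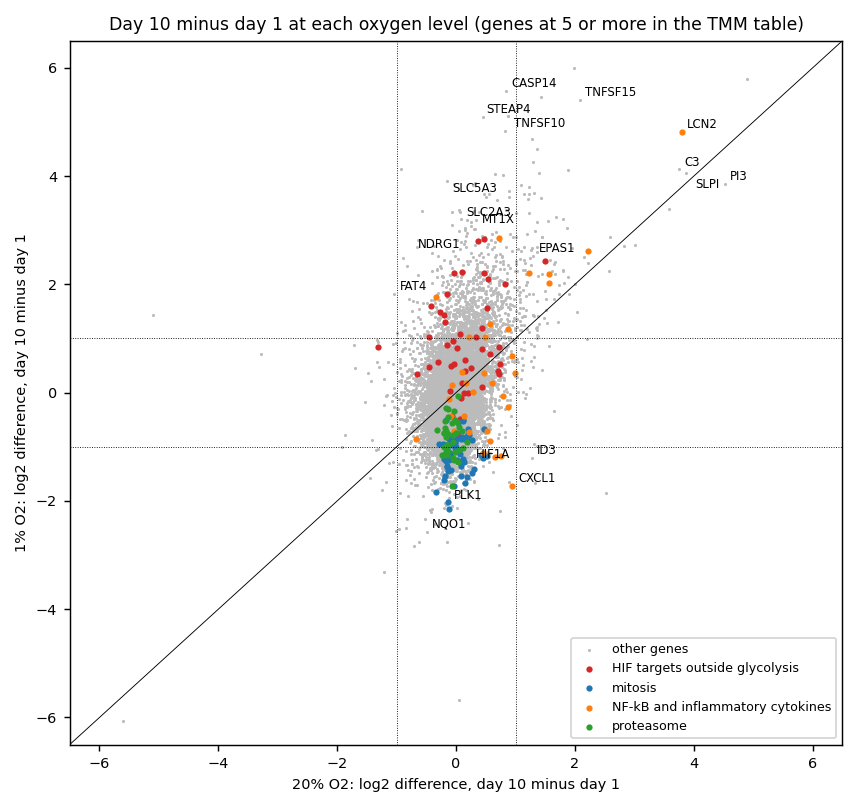
Log2 difference, day 10 minus day 1, at 1% O2 (vertical axis) against 20% O2 (horizontal axis) for 11488 genes; dotted lines mark 2-fold and the solid line equal differences. The cloud is taller than wide (SD 0.81 at 1% O2 and 0.36 at 20% O2), mitosis and proteasome genes lie below 0 on the vertical axis and around 0 on the horizontal axis, and C3, SLPI, LCN2 and PI3 lie high on both axes.

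Among the genes with the highest differences at 1% O2 were a pair of TNF family cytokines. TNFSF15 (chromosome 9, 114784635 to 114806039) had 3662 counts at day 10 and 87 at day 1 of 1% O2, and 162 at day 10 and 31 at day 1 of 20% O2. It was 42.5-fold higher at 1% O2, a log2 difference of 5.41 (5.14 to 5.77), against 2.08 at 20% O2. TNFSF10 (chromosome 3, 172505508 to 172523430), the death ligand TRAIL, had 1296 counts at day 10 and 37 at day 1 of 1% O2, and 41 and 18 at 20% O2. Its log2 difference was 5.10 (4.71 to 5.69) at 1% O2 and 0.88 at 20% O2. The 1% O2 day 10 library thus stood above the other 3 for both genes.

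Several other leading genes were near 0 counts at day 1. SLC6A12, a betaine and GABA transporter gene, had 126 counts at day 10 and 0 at day 1 of 1% O2, at least 43.4-fold higher against a floor of 3 counts in the day 1 library. CASP14, a caspase gene of the skin barrier, had 140 counts at day 10 and 1 at day 1, and the metalloreductase gene STEAP4 had 130 and 1. The keratin gene KRT17 had 83 counts at day 10 and 1 at day 1, and RARB, a retinoic acid receptor gene, had 125 and 3. DHRS3, a retinal reductase gene, had 100 counts at day 10 and 4 at day 1. The synaptotagmin gene SYT12 (168 counts at day 10 and 3 at day 1), HPCAL4 (241 and 9) and the peptide hormone receptor gene GLP2R (184 and 8) showed the same pattern. ZNF467 and LINC00520 had 67 and 64 counts at day 10 and 2 each at day 1.

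Among the lowest genes, NQO1 (chromosome 16, 69709401 to 69726560), a quinone reductase gene and NRF2 target, had 244 counts at day 10 and 1506 at day 1 of 1% O2, against 1725 and 2063 at 20% O2. It was 5.93-fold lower, at −2.57 (−2.78 to −2.38). OXCT1, an enzyme gene of ketone body use, had 99 counts at day 10 and 552 at day 1 of 1% O2, a difference of −2.41 (−2.75 to −2.12), and 0.20 at 20% O2. NAV3 differed by −2.49 (−2.76 to −2.26), the protocadherin gene FAT3 by −2.75 (−3.28 to −2.36), and the caveola component gene PRKCDBP by −2.51 (−2.90 to −2.20). ESM1 (76 counts at day 10 and 455 at day 1), SHISA3 (18 and 120), RIMS2 (85 and 451), LINC00704 (51 and 276) and the zinc finger gene ZNF782 (6 and 57) were lower too. The short noncoding RNA BCYRN1 had 17 counts at day 10 and 136 at day 1 of 1% O2, against 383 and 196 at 20% O2.

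Some of the lowest rows are uncertain. GTF2H2 had 0 counts at day 10 and 137 at day 1 of 1% O2, but 78.4% of its sampled 50-base words occur in another gene, and the rows of its family summed to a difference of −1.11. SGK3 had 0 counts at day 10 and 104 at day 1, while both SGK3 rows together differed by −1.03. TAF9B was lower, at −2.76, and TAF9 and TAF9B together at −1.31. HMGN2, a nucleosome-binding protein gene, had 919 counts at day 10 and 5111 at day 1, with 26.9% of its words shared.

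The HIF system itself differed in opposite directions between its α subunits. HIF1A (chromosome 14, 61695513 to 61748258), encoding HIF-1α, had 820 counts at day 10 and 2056 at day 1 of 1% O2, against 5727 at day 10 and 4110 at day 1 of 20% O2. At 1% O2 it was lower, at −1.28 (−1.40 to −1.16), and at 20% O2 it differed by 0.24. EPAS1 (chromosome 2, 46297407 to 46386697) had 3062 counts at day 10 and 549 at day 1 of 1% O2, against 1613 and 556 at 20% O2. It was 5.75-fold higher at 1% O2, at 2.52 (2.40 to 2.66), and 1.29 higher at 20% O2. Both day 10 libraries therefore held more EPAS1 than both day 1 libraries, whereas HIF1A was lowest at day 10 of 1% O2. The shared partner ARNT differed by 0.69 (0.52 to 0.87), the von Hippel-Lindau gene VHL by −0.16 and the asparagine hydroxylase gene HIF1AN by 0.10. Of the prolyl hydroxylases, EGLN3 was higher by 2.21 (1.98 to 2.49) and EGLN1 differed by −0.48 (−0.58 to −0.39). The 16 genes of the oxygen sensing core had 3 higher and 1 lower, the latter near the 6.76% of all genes. Their median was −0.07 with TMM factors and became 0.08 with library totals.

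HIF targets outside glycolysis had 18 of 46 genes higher and none lower, against 9.46% and 6.76% of all genes. Their median log2 difference was 0.82 at 1% O2, where the median of all genes was −0.09, and 0.09 at 20% O2. NDRG1 (chromosome 8, 133237175 to 133297252), a stress-response gene, had 40452 counts at day 10 and 6003 at day 1 of 1% O2, against 1014 and 668 at 20% O2. Its difference was 2.80 (2.76 to 2.84) at 1% O2 and 0.36 at 20% O2. ANGPTL4 (chromosome 19, 8364155 to 8374370), an inhibitor of lipoprotein lipase, had 1361 counts at day 10 and 194 at day 1 of 1% O2, against 68 and 41 at 20% O2, 7.19-fold higher at 1% O2. LOX (chromosome 5, 122063195 to 122078259), the collagen cross-linking lysyl oxidase, had 6153 and 1350 counts at day 10 and day 1 of 1% O2, against 474 and 375 at 20% O2, a difference of 2.24 (2.15 to 2.32).

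The hormone genes STC1 and STC2 were higher by 2.21 (2.14 to 2.29) and 2.43 (1.80 to 3.44), VEGFA, the angiogenic growth factor, by 1.43 (1.35 to 1.51), and the HIF co-regulator gene CITED2 by 1.83 (1.73 to 1.93). Not every target was higher at day 10 past the rule. CA9, a carbonic anhydrase of pH control, had 717 counts at day 10 and 560 at day 1 of 1% O2, against 104 and 53 at 20% O2. It differed by 0.40 (0.24 to 0.57) at 1% O2. BNIP3, a mitophagy receptor gene, had 1808 and 3335 counts at 1% O2, against 1235 and 1055 at 20% O2. Its difference at 1% O2 was −0.83 (−0.92 to −0.75), below the size rule, while its relative BNIP3L differed by 0.60. Both CA9 and BNIP3 were thus already higher at 1% than at 20% O2 on day 1. The demethylase gene KDM3A differed by 0.19 (0.06 to 0.31).

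**Figure D2:**
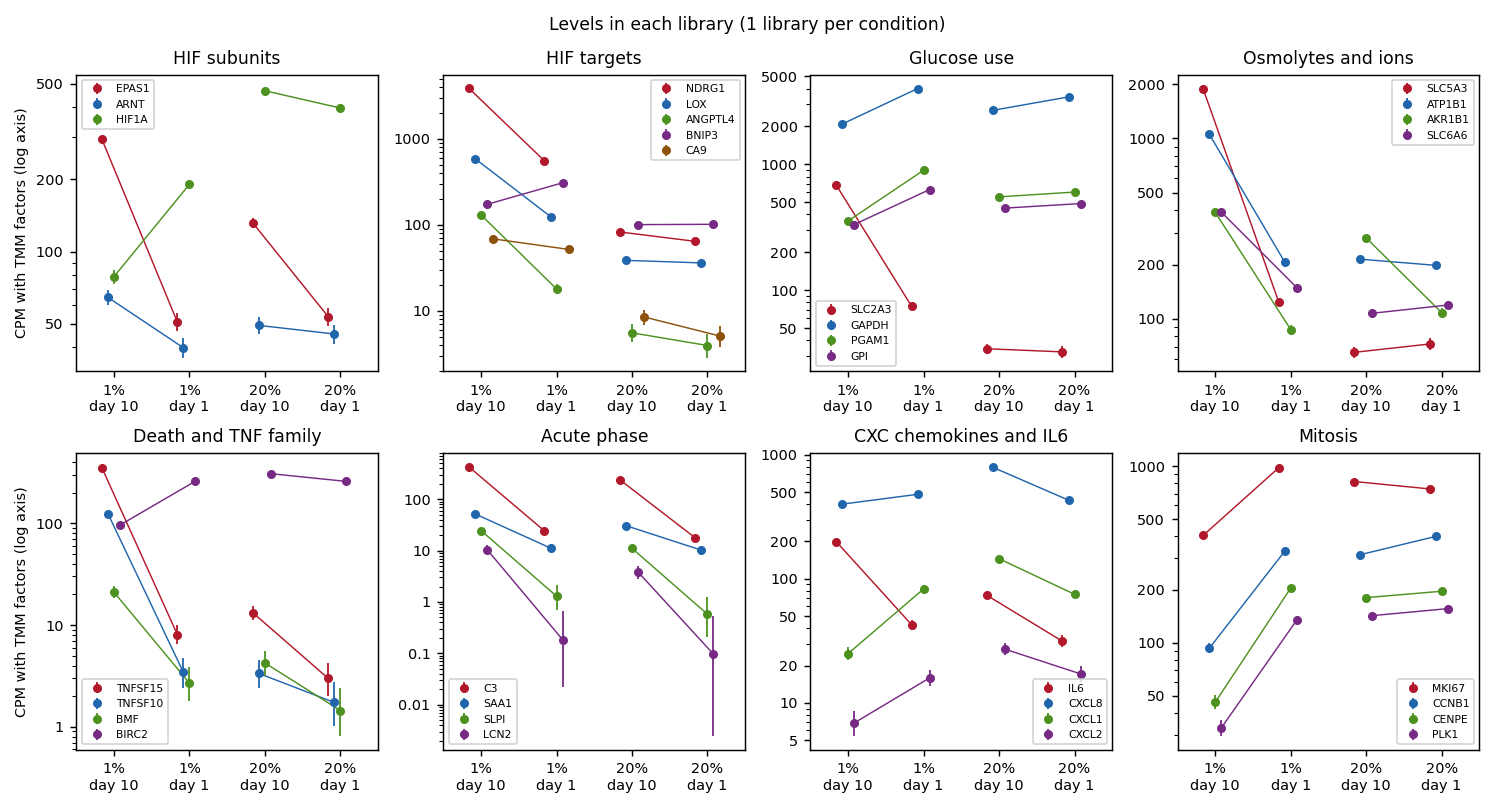
CPM with TMM factors on a log axis in the 1% O2 day 10, 1% O2 day 1, 20% O2 day 10 and 20% O2 day 1 libraries, 1 library each; bars are exact 95% Poisson intervals, and lines join the days of 1 oxygen level. EPAS1, NDRG1, SLC2A3 and SLC5A3 are highest at day 10 of 1% O2, HIF1A, CXCL1 and PLK1 lowest there, and C3 and SLPI are higher at day 10 at both oxygen levels.

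Promoters of LOX (chr5:122078210-122078509, minus strand) and ANGPTL4 (chr19:8363905-8364204, plus strand) are shown because both genes were among the most raised HIF targets. They run from 250 bases before to 50 after the RefSeq transcription start of GRCh38.p14, and capitals mark each HIF core, ACGTG or GCGTG, on either strand.
LOX: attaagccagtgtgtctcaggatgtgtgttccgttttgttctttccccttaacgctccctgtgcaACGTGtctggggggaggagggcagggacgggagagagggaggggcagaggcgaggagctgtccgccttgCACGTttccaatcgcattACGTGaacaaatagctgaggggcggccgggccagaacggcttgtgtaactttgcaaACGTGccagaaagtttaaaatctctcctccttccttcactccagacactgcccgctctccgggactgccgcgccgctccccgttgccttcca
ANGPTL4: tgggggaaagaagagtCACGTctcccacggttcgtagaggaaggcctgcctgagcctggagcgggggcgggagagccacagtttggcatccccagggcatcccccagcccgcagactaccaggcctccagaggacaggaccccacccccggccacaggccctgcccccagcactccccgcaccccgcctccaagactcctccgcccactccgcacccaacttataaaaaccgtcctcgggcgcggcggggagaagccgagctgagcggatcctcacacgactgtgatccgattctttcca
The LOX window holds 4 matches and the ANGPTL4 window 1. So short a core is common: 64.5% of the 9367 gene promoters that could be matched hold it, and only 76.1% of the HIF target list could be matched, so the share within the list is void as a check. A match is a description of letters, not a bound site.

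Glycolysis did not follow the other HIF targets. Of 25 genes of glycolysis and lactate export, 2 were higher and 1 lower at 1% O2, below the 9.46% and 6.76% of all genes. The median was −0.03 and became 0.11 with library totals. SLC2A3 (chromosome 12, 7919230 to 7936187), the high-affinity glucose transporter GLUT3, had 7160 counts at day 10 and 805 at day 1 of 1% O2, against 420 and 336 at 20% O2. It was 9.18-fold higher, at 3.20 (3.10 to 3.31), against 0.08 at 20% O2. SLC2A1, encoding GLUT1, differed by 0.55 (0.49 to 0.62). The lactate transporter gene SLC16A1 had 72 and 12 counts at day 10 and day 1, a difference of 2.44 (1.74 to 3.65). Of the 25 genes 14 lay below 0 (11 with library totals), among them GAPDH at −0.94 (−0.96 to −0.91), GPI at −0.92 (−0.98 to −0.86), LDHA at −0.47 (−0.49 to −0.45) and PGK1 at −0.47. PGAM1, past the rule at −1.34 (−1.39 to −1.28), shares 43.4% of its words with another gene. SLC2A3 and GAPDH share 16.8% and 16.2% of theirs. The plot of HIF targets beside glycolysis shows this split within the pathway.

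**Figure D3:**
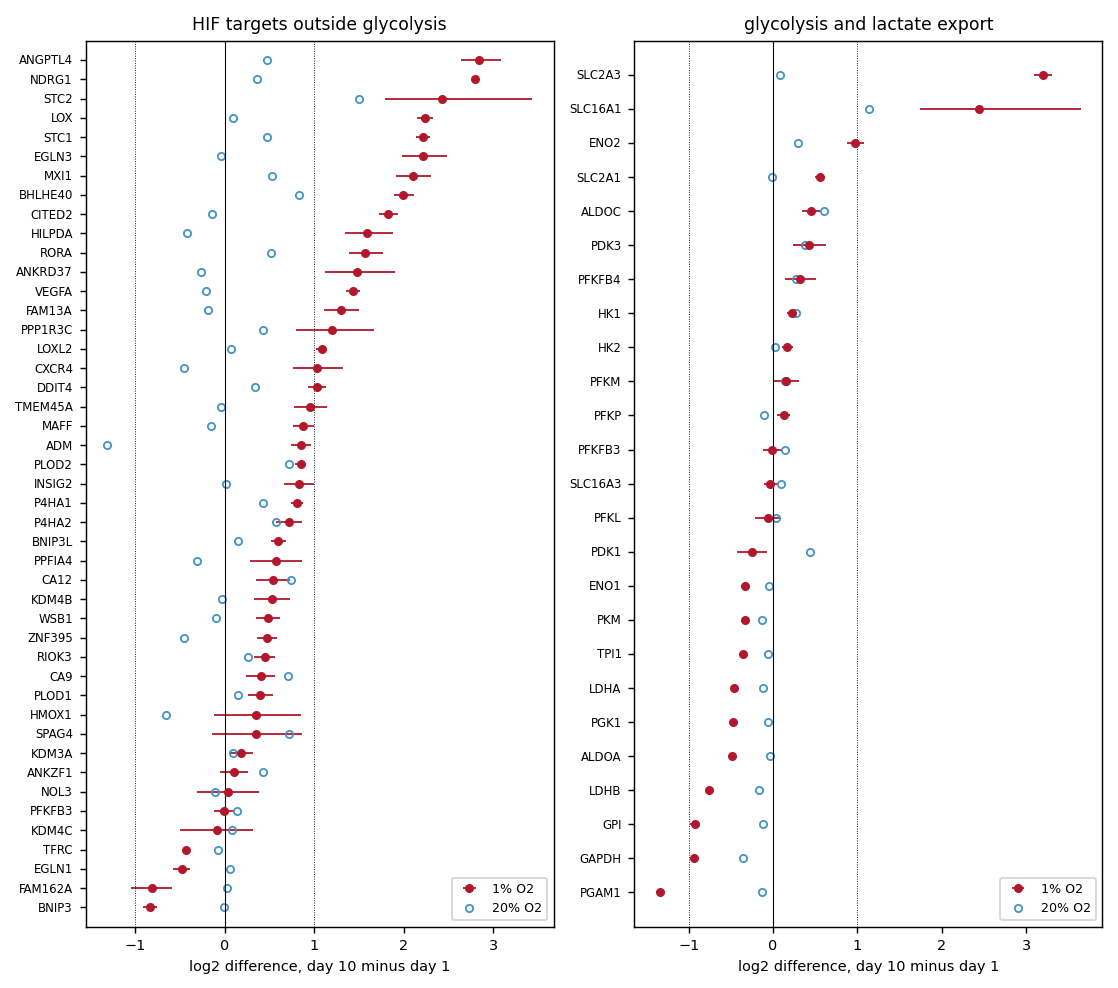
Log2 difference, day 10 minus day 1, for all but 1 of 46 HIF targets (left) and 25 genes of glycolysis and lactate export (right); filled points are 1% O2 with exact 95% counting intervals, open points 20% O2, and dotted lines mark 2-fold. HIF targets run from −0.83 to 2.85 and glycolysis genes from −1.34 to 3.20, with 18 and 2 genes higher past 2-fold.

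Osmolyte and ion transport genes had 6 of 16 higher and none lower (median 0.47 at 1% O2, 0.12 at 20% O2). SLC5A3 (chromosome 21, 34073578 to 34106260), the myo-inositol transporter, had 19550 counts at day 10 and 1342 at day 1 of 1% O2, against 800 and 754 at 20% O2. Its log2 difference was 3.91 (3.83 to 3.99) at 1% O2 and −0.15 at 20% O2. It overlaps MRPS6, whose row differed by 2.52, and both rows together were higher by 3.71. The taurine transporter gene SLC6A6 was higher by 1.39 (1.31 to 1.47), the aquaporin gene AQP3 by 2.59 (2.22 to 3.06) and the sodium pump subunit gene ATP1B1 by 2.35 (2.29 to 2.42). Glucose can be turned into the osmolyte sorbitol by the product of AKR1B1, which had 4055 and 942 counts at day 10 and day 1 of 1% O2 and 3443 and 1124 at 20% O2. Its differences were 2.15 at 1% O2 and 1.37 at 20% O2.

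Cell death genes split. Of 33, 5 were higher and 4 lower, against 9.46% and 6.76% of all genes, with a median of −0.10 (0.04 with library totals). Besides the TNF family ligands and CASP14, the pro-apoptotic BH3-only gene BMF had 219 counts at day 10 and 29 at day 1 of 1% O2, a difference of 2.88 (2.40 to 3.58), and the TRAIL decoy receptor gene TNFRSF10C, with 36.2% of its words shared, differed by 1.65 (1.03 to 2.50). BIRC2, an inhibitor of apoptosis, was lower, at −1.43 (−1.54 to −1.33), with 1001 and 2801 counts.

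Matrix and adhesion genes had 17 of 45 higher and 1 lower, with a median of 0.78 at 1% O2 and 0.21 at 20% O2. LOXL4, a relative of LOX, had 2613 counts at day 10 and 187 at day 1 of 1% O2, a difference of 3.84 (3.64 to 4.08), against 1.10 at 20% O2. The integrin genes ITGA1 and ITGB3 were higher by 2.39 (2.22 to 2.57) and 2.29 (1.94 to 2.72), with 56.7% of the words of ITGB3 shared, and FN1, encoding fibronectin, by 1.17 (1.12 to 1.23). The collagen genes COL6A2 and COL4A5 were higher by 1.60 and 2.04. Proteases and their inhibitors had 11 of 33 higher and 2 lower at 1% O2, and 4 higher and 1 lower at 20% O2. MMP1, a collagenase gene, had 35627 and 11027 counts, a difference of 1.74 (1.71 to 1.77). The plasminogen activator gene PLAT was higher by 1.76 (1.70 to 1.81), and MMP10 by 2.82 (2.15 to 4.02), against 0.12 for PLAT and 0.58 for MMP10 at 20% O2. MMP2, MMP15 and ADAMTS6 were past 2-fold at both oxygen levels, with differences of 2.40, 2.20 and −1.65 at 1% O2 and of 2.22, 1.66 and −1.19 at 20% O2. Among 27 epithelial-mesenchymal genes 5 were higher and 1 lower. The epithelial junction genes CLDN7, CDH3 and JUP were higher by 2.40, 3.04 and 2.06, with 468, 86 and 842 counts at day 10 and 90, 9 and 207 at day 1, and so were the mesenchymal cadherin gene CDH11, at 1.37 (1.07 to 1.69), and the keratin gene KRT86, at 1.13, which shares 42.6% of its words. The mesenchymal filament gene VIM was the lower member, at −1.14 (−1.17 to −1.10), with 10192 and 23189 counts. With library totals VIM was at −0.99, and no member was called lower. Of the members past neither bound, the epithelial keratin genes KRT8 and KRT18 had 253 and 342 CPM at day 10 and 357 and 405 CPM at day 1 of 1% O2.

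Growth factor and morphogen genes were more often higher than lower. TGF-β, BMP and ID genes had 9 of 31 higher and 1 lower (median 0.62 at 1% O2 and 0.37 at 20% O2). The activin subunit gene INHBA was higher by 2.27 (2.03 to 2.56), the stress cytokine gene GDF15 by 1.91 (1.65 to 2.21), the follistatin-like gene FSTL3 by 1.77 and the BMP antagonist gene NOG by 1.49. Receptor tyrosine kinases and their ligands had 13 of 38 higher and 2 lower (median 0.51 at 1% O2 and within rounding of 0 at 20% O2). IGFBP3, which binds insulin-like growth factors, had 1889 and 443 counts at day 10 and day 1 of 1% O2, a difference of 2.14 (1.99 to 2.29), and −0.33 at 20% O2. The insulin receptor substrate gene IRS2 was higher by 1.85, the receptor genes ERBB3 and PDGFRB by 1.99 and 2.02, and the EGFR ligand gene TGFA by 1.87.

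Immediate early genes had 9 of 29 higher and 1 lower, with a median of 0.67 at 1% O2 and 0.03 at 20% O2; with library totals 13 were higher. The phosphatase gene DUSP1 had 5609 counts at day 10 and 1396 at day 1 of 1% O2, a difference of 2.05 (1.97 to 2.14), and the orphan receptor genes NR4A1, NR4A2 and NR4A3 were higher by 2.20, 1.77 and 1.85. The AP-1 gene FOSL1 was the lower member, at −1.66 (−1.79 to −1.54). Clock genes had 7 of 17 higher and none lower. The clock repressor gene BHLHE40 was higher by 2.00 (1.89 to 2.11), RORA by 1.57, NR1D1 by 1.45 and PER1 by 1.04. Of 29 cell cycle brakes 6 were higher and 2 lower, among them TXNIP, a brake on glucose uptake with 8976 and 2841 counts, at 1.71 (1.65 to 1.77), and CDKN1C at 1.74. CDKN1A, encoding p21, differed by 0.15 (0.03 to 0.26).

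Inflammatory genes divided by member. The NF-kB and cytokine list had 11 of 34 higher and 5 lower at 1% O2, with a median of 0.16 there and 0.54 at 20% O2; with library totals 3 were lower. PTGS2, encoding the prostaglandin-forming COX-2, had 2906 counts at day 10 and 411 at day 1 of 1% O2, against 291 and 149 at 20% O2, a difference of 2.86 (2.72 to 3.02) at 1% O2. IL6 had 2082 and 461 counts at day 10 and day 1 of 1% O2, against 901 and 326 at 20% O2, a difference of 2.22 (2.08 to 2.37) at 1% O2 and 1.22 at 20% O2. The interleukin-1 genes IL1A and IL1B were higher by 1.27 and 1.18. The neutrophil chemokine gene CXCL1 went the other way, with 261 counts at day 10 and 895 at day 1 of 1% O2, but 1778 and 779 at 20% O2. Its differences were −1.72 (−1.93 to −1.53) at 1% O2 and 0.95 at 20% O2. CXCL2 differed by −1.19 at 1% O2 and 0.65 at 20% O2, the colony-stimulating factor gene CSF2 by −1.11 and 0.45, and CXCL8 by −0.26 and 0.88. Of the blood markers, CD14 had 40 counts at day 10 and 10 at day 1 of 1% O2 and PTPRC 28 and 3, and their part in the result was not tested. CD3E and HBB were at 0.

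The promoters of IL6 (chr7:22726950-22727249, plus strand) and CXCL1 (chr4:73869143-73869442, plus strand) are shown because both hold the same kind of NF-kB site while the genes differed in opposite directions. Capitals mark the motif, GGG, then any pair of bases, then TTTCC, searched on both strands.
IL6: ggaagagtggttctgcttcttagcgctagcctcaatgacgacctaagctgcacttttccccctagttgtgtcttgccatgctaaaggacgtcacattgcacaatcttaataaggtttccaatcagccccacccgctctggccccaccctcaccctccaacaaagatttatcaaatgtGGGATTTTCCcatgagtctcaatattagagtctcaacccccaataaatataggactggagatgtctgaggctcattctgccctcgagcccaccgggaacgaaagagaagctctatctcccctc
CXCL1: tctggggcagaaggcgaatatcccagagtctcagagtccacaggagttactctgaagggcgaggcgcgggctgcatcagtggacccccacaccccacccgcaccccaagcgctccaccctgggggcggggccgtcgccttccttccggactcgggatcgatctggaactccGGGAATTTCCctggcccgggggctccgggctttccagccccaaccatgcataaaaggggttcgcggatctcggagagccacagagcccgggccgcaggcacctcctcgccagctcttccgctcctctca
The match begins 73 bases before the start in IL6 and 79 in CXCL1. Over all matched promoters 2.21% hold this motif. The NF-kB list could be matched for 79.4% of its genes, too few for a share.

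Of 38 interferon-stimulated genes 6 were higher and 3 lower, against 9.46% and 6.76% of all genes (median 0.12). The lower count was near its share. GBP2 was at 2.05 (1.75 to 2.40), IFITM1 at 1.65 (36% shared) and IFI44 at −1.45. Antigen presentation had 6 of 20 higher and 1 lower, against the same shares. The class I genes HLA-B, HLA-C and HLA-E were higher by 1.38 (1.27 to 1.48), 1.16 and 1.26, and the class II chaperone gene CD74 by 1.15.

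Genes of cell division were lower at day 10. All 61 mitosis genes lay below 0 at 1% O2, 36 of them past the size rule, against 6.76% of all genes, and the median was −1.14 at 1% O2 and 0.00 at 20% O2. With library totals 30 were past the rule and the median was −0.99. PLK1 (chromosome 16, 23678889 to 23690367), the polo-like mitotic kinase, had 343 counts at day 10 and 1450 at day 1 of 1% O2, against 1744 and 1619 at 20% O2. It was 4.07-fold lower, at −2.02 (−2.20 to −1.86). The kinetochore motor gene CENPE had 480 and 2203 counts at day 10 and day 1 of 1% O2, a difference of −2.14 (−2.29 to −2.01), and −0.12 at 20% O2. Cyclin B1, CCNB1, was lower, at −1.83 (−1.93 to −1.73), the kinesin gene KIF20A at −1.73, the condensin gene NCAPG at −1.67 and the proliferation marker gene MKI67 at −1.27 (−1.32 to −1.22). In each of these genes the 1% O2 day 10 library was the lowest of the 4.

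The cell cycle homology region (CHR), TTTGAA, is a known element of mitotic promoters. PLK1 (chr16:23678639-23678938, plus strand), CCNB2 (chr15:59104896-59105195, plus strand) and CDC20 (chr1:43358731-43359030, plus strand) are shown with it in capitals on either strand; CCNB2 and CDC20 were picked with their values known.
PLK1: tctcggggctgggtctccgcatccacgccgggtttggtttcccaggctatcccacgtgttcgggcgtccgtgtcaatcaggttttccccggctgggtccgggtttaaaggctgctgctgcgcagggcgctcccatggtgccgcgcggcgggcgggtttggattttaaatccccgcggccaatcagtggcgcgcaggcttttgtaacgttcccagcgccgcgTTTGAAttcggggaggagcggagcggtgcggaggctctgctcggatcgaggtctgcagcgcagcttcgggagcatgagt
CCNB2: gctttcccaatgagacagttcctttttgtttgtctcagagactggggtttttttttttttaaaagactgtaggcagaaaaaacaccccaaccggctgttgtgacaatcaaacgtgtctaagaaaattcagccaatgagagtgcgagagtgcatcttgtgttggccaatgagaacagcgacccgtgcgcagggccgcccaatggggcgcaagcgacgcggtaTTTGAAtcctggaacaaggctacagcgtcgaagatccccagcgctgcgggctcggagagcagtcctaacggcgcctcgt
CDC20: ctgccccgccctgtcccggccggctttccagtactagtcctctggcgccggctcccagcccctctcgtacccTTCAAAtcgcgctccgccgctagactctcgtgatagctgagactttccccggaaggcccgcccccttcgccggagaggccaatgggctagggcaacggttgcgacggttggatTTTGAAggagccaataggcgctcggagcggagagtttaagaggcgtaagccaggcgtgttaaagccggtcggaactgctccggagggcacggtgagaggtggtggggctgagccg
The element begins 29 bases before the start in both PLK1 and CCNB2. Not every mitosis promoter holds it: the KIF20A window has 0 matches, and that of CENPF has 1, beginning 40 bases after the start. CCNB2 and CDC20 were lower, at −1.37 (−1.53 to −1.22) and −1.55 (−1.69 to −1.42). The letters occur in 35 of the 53 mitosis promoters that could be matched (66%), in 881 of the 9367 promoters of all genes compared (9.41%) and in 2 of 46 replication promoters (4.35%). Among the matched promoters of genes called lower the share was 16.4%.

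DNA replication and nucleotide supply had 21 of 55 genes lower and none higher (median −0.86 at 1% O2 and −0.13 at 20% O2; 14 lower with library totals). The ribonucleotide reductase gene RRM2 had 1201 and 5081 counts, a difference of −2.03 (−2.12 to −1.94), and shares 39.4% of its words. Cyclin E2, CCNE2, was lower, at −2.14 (−2.44 to −1.89) and the phosphatase gene CDC25A at −1.95. DNA repair had 8 of 45 lower (2 with library totals), including NBN at −1.46 (−1.63 to −1.31) and BARD1 at −1.42. In the fixed panel of 18 HIF, growth and damage genes, 7 were higher and 2 lower; MYC differed by −0.60 (−0.76 to −0.44). Among 31 chromatin genes, 4 were lower and 2 higher. The histone methyltransferase gene EZH2 was lower, at −1.48, UHRF1, a maintenance factor of DNA methylation that shares 32.5% of its words, at −1.34, and the demethylase gene KDM7A was higher by 1.86 (1.62 to 2.14).

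Ribosome biogenesis had 18 of 39 lower and none higher (median −0.86; 9 lower with library totals), with UTP20 at −2.13 (−2.29 to −1.99) and NPM1 at −1.28, which shares 39.4% of its words. Splicing factors had 17 of 41 lower and 1 higher (median −0.89), with HNRNPM at −1.78 (−1.87 to −1.69), SRSF3 at −1.51 and MBNL2 the higher member at 1.30. Proteasome genes had 12 of 37 lower (median −0.78; 7 with library totals), and all 37 lay below 0. The assembly factor gene PSMG1 was the lowest of these, at −1.73 (−1.99 to −1.50). Mitochondrial ribosomal proteins had 17 of 75 lower (8 with library totals) and 1 higher, which was MRPS6, the gene that overlaps SLC5A3. Cytosolic ribosomal proteins had none of 78 past the rule, with medians of −0.16 at 1% O2 and −0.23 at 20% O2. Aminoacyl-tRNA synthetases had 3 of 37 lower, a share near the 6.76% of all genes, with FARSB at −1.39.

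Respiratory chain and citric acid cycle genes had few members past the rule. Respiratory chain subunits had 3 of 78 lower, below the 6.76% of all genes, and a median of −0.38, with cytochrome c, CYCS, at −1.23 (−1.31 to −1.16). The citric acid cycle had 1 of 31 higher, the pyruvate carboxylase gene PC at 1.17, and 1 lower, the fumarase gene FH at −1.09. Both counts were below the shares of all genes. With library totals FH was at −0.94, and no member was called lower. Heat shock genes had 4 of 23 lower (2 with library totals), above the 6.76% of all genes. HSP90AA1 and HSPA8 differed by −1.29 and −1.14 and share 16.5% and 15.6% of their words. NRF2 targets had 4 of 41 higher, near the 9.46% of all genes, and 7 lower, above the 6.76% (2 with library totals). The glutathione synthesis gene GCLM was lower, at −1.50, the cystine transporter gene SLC7A11 at −1.06, and AKR1C1, which shares 32% of its words, was higher by 2.26.

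Lipid droplet and uptake genes had 4 of 26 higher and 3 lower, against 9.46% and 6.76% of all genes. The receptor gene LRP1 was at 2.25 (2.08 to 2.45), HILPDA, an inhibitor of lipolysis, at 1.59 and FABP5 at −1.72 (35.2% shared). Cholesterol and fatty acid synthesis had 3 of 36 higher and 1 lower, below the 9.46% and 6.76% of all genes, with ACSS2, which makes acetyl-CoA from acetate, at 1.61. Autophagy and lysosome genes had 5 of 48 higher, near the 9.46% of all genes, and none lower (8 higher with library totals), among them GABARAPL1 at 2.72 (2.51 to 2.97), the lysosome regulator gene TFEB at 2.78 and the cathepsin gene CTSB at 1.34. Glycogen metabolism had 3 of 19 higher, with PPP1R3B at 1.55, and 1 lower, near the 6.76% of all genes. The integrated stress response had 6 of 32 higher and 2 lower, the latter also near 6.76%. ATF5 was lower, at −2.09 (−2.46 to −1.78), and CEBPB higher by 1.29. Endoplasmic reticulum chaperones had 2 of 29 higher and 1 lower, also below the shares of all genes. Metallothioneins and zinc genes had 1 of 12 higher, near the 9.46% of all genes. This was MT1X at 3.03 (2.83 to 3.27), with 31.1% of its words shared. Iron handling had 1 of 17 lower, near the 6.76% of all genes, the ferritin gene FTL at −1.09 (20.6% shared). With library totals FTL was at −0.94, and no member of that list was called lower. Named long noncoding RNAs had 8 of 23 higher and 4 lower, with MALAT1 at 1.31 (1.27 to 1.34) and NEAT1 at 1.37.

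**Figure D4:**
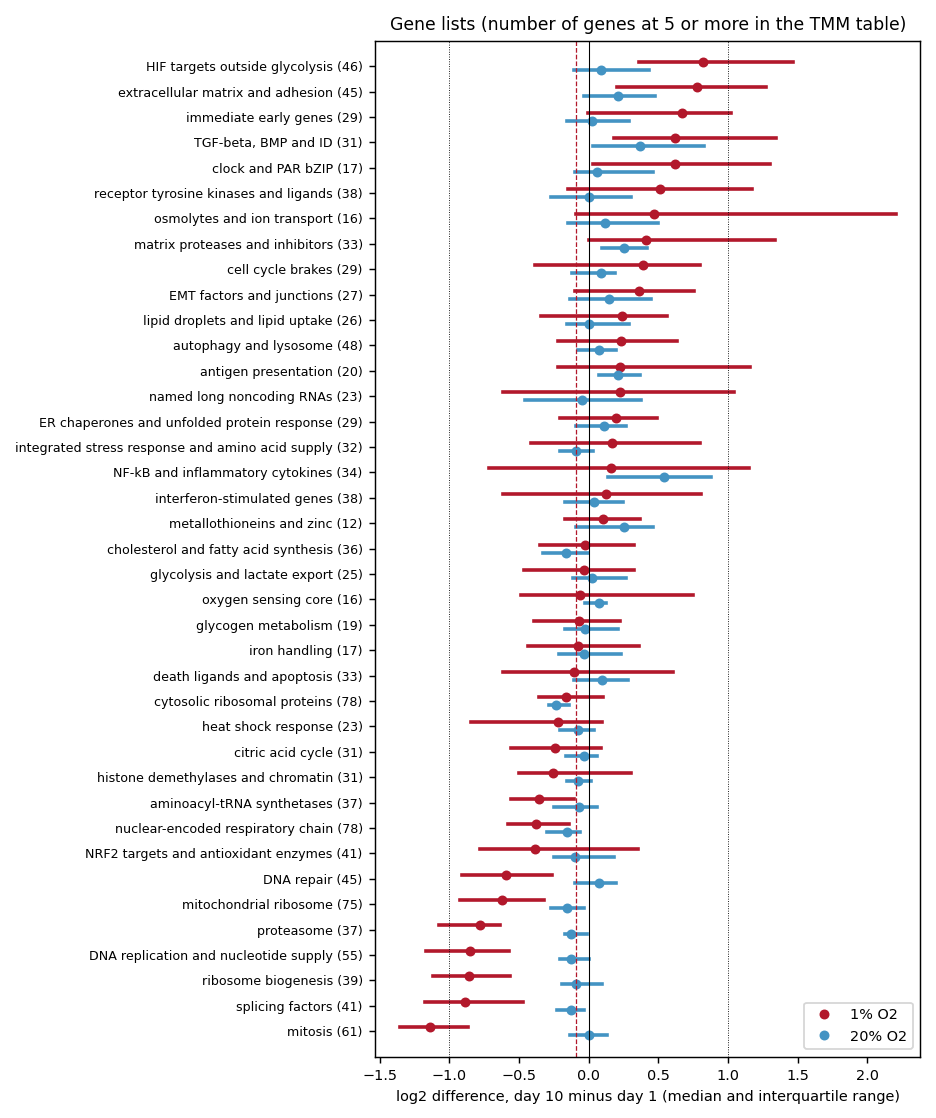
Median (point) and interquartile range (bar) of the log2 difference, day 10 minus day 1, for each gene list at 1% O2 (red, above) and 20% O2 (blue, below); the dashed line is the median of all 11488 genes at 1% O2. Medians at 1% O2 run from −1.14 for mitosis to 0.82 for HIF targets outside glycolysis.

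Among genes past the rule at 1% O2 and within 0.25 of 0 at 20% O2, the highest after SLC5A3 were the histone citrullinating enzyme gene PADI2 (97 counts at day 10 and 5 at day 1 of 1% O2), C1QL1 at 3.38 (2.97 to 3.96) and RGS9 at 3.34. CYP1A1, a cytochrome P450 gene and classic target of the aryl hydrocarbon receptor, had 1033 counts at day 10 and 104 at day 1 of 1% O2, against 104 and 92 at 20% O2. It was 10.1-fold higher at 1% O2, at 3.34 (3.07 to 3.67). MAFA and CDK18 were higher by 3.20 and 3.09. On the lower side, besides NAV3, CENPE, OXCT1, UTP20 and ATF5, SFXN2 differed by −2.13 (−2.69 to −1.70).

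A change shared by both oxygen levels can be tested, because day 10 and day 1 then have 2 libraries each. In edgeR's quasi-likelihood test over these 4 libraries, with oxygen as a covariate, 153 of 13011 genes rose with day (1.18%) and 12 fell (0.0922%) after Benjamini-Hochberg adjustment, and 1571 had an unadjusted p under 0.05. The fit has 1 residual degree of freedom, which is the inequality of the day change between the oxygen levels. It borrows 23.4 prior degrees of freedom from the other genes, and it does not test the 1% O2 pair alone. Of the genes compared here 135 rose and 12 fell. Among the 135, 82 were 2-fold higher at both oxygen levels and 50 at 1% O2 only, and 123 differed more at 1% O2. Their median difference was 2.27 at 1% O2 and 1.14 at 20% O2. Fits on 3 libraries carry no oxygen term and set a lone library against a pair, so the model changes together with the libraries. They cannot show how far the 165 calls depend on single libraries.

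Some of the lowest p-values belong to rows with shared sequence or joined names, such as GTF2H2 and PHOSPHO2-KLHL23. The complement gene C3 (chromosome 19, 6677704 to 6720650) had 4432 counts at day 10 and 261 at day 1 of 1% O2, and 2928 and 183 at 20% O2. It rose by a log2 change of 3.98 (SE 0.30, edgeR adjusted p = 2.18e-08). The antiprotease gene SLPI had 256 and 14 counts at day 10 and day 1 of 1% O2, and 136 and 6 at 20% O2, and rose by 4.27 (SE 0.47, edgeR adjusted p = 1.01e-05). The siderophore-binding protein gene LCN2 (109 and 2 counts at 1% O2, 47 and 1 at 20% O2) and the elafin gene PI3 (55 and 2, 79 and 1) rose by 5.58 and 5.29 (edgeR adjusted p = 0.000111 and 0.000279). TNFSF15 rose by 4.10 (edgeR adjusted p = 6.89e-05) and EPAS1 by 1.95 (SE 0.31, edgeR adjusted p = 0.00157). IL6, SAA1, SAA2 and AKR1B1 each rose with an edgeR adjusted p of 0.00191; SAA1 and SAA2 share 43.8% and 37.7% of their words, and the 3 rows of their family together were higher by 2.31 at 1% O2 and 1.74 at 20% O2. The cystatin gene CST1 rose by 2.88, CSGALNACT1 by 3.15, PSG4 by 2.96 and TCN1 by 4.48 (edgeR adjusted p = 0.000816, 0.00307, 0.00191 and 0.00307); CST1 and PSG4 share 22.2% and 21.8% of their words. ANGPTL4 rose by 1.91 (edgeR adjusted p = 0.0159) and PTGS2 by 1.88 (edgeR adjusted p = 0.00883). The day estimate averages over oxygen levels, and these genes differed mostly at 1% O2. ANGPTL4 differed by 2.85 at 1% O2 and by 0.47 (−0.09 to 1.09) at 20% O2, and PTGS2 by 2.86 and 0.72. Of the genes that fell, GTF2H2 had the lowest p (edgeR adjusted p = 2.97e-06), with 0 counts in both day 10 libraries, and is uncertain for the shared words given above. The gluconeogenesis gene FBP1 had a log2 change of −1.50 (edgeR adjusted p = 0.00844), and ADAMTS6 fell by 1.39 (edgeR adjusted p = 0.00919). PRKCDBP, ESM1 and NQO1 fell by 1.69, 1.63 and 1.48 (edgeR adjusted p = 0.0101, 0.017 and 0.0303). Here too the pairs were unequal, with −2.51, −2.50 and −2.57 at 1% O2 and −0.95, −0.84 and −0.50 at 20% O2.

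The reoxygenated library and the 20% O2 day 10 library are both outside the 1% O2 pair. For the 1087 genes higher at day 10 of 1% O2, the log2 difference of reoxygenated minus 20% O2 day 10 had a median of 0.27, and 78 of them (7.18%) were 2-fold higher, against a median of −0.01 and 1.27% over all 11488 genes. Another 12 of the 1087 (1.1%) were 2-fold lower there, against 0.357% of all genes. For the 777 lower genes the median was −0.18, with 10 (1.29%) 2-fold lower and 5 (0.644%) 2-fold higher. From day 1 to day 10 at 20% O2, the 1087 higher genes had a median of 0.33 and the 777 lower genes one of −0.12. Reoxygenated cells had also been in culture longer than the 20% O2 day 10 cells. Time in culture and earlier low oxygen therefore cannot be told apart here. This reoxygenated difference has 1 library on each side.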

How the data were processed

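RNA was measured by mRNA sequencing in 5 libraries of MDA-MB-231 cells, 1 per condition. The authors deposited expected counts per gene symbol, estimated and not normalized, and a table of normalized signal values, namely CPM scaled by TMM factors, as the names and values of the files show. The submitters' processing notes name Bowtie2 2.1.0, RSEM 1.2.15, edgeR and the hg38 build. For the annotation and strand setting, nothing is given in the sources used here. Between 3.577% and 4.087% of the estimated counts in a library were not whole, and they were rounded. All values of the normalized table were whole reads (tolerance 0.02), of which 99.95% equal the rounded counts. Symbols of 28 rows had become dates.

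TMM factors (edgeR 4.0.16, R 4.3.3) came from 13940 rows with 1 CPM or more in any library and were 1.067 for 1% O2 day 10, 0.9648 for 1% O2 day 1, 0.9774 for 20% O2 day 10, 0.9649 for 20% O2 day 1 and 1.03 for the reoxygenated library. Log2 CPM used a prior count of 2. Count ratios have exact 95% Clopper-Pearson intervals (SciPy 1.17.1); reads carried no molecular identifiers, so they cover counting error only, and a count of 0 allows up to 3 counts. The day test used edgeR's quasi-likelihood fit with oxygen and day, genes with 1 CPM or more in 2 of 4 libraries, and an adjusted threshold of 0.05; its common dispersion was 0.0484. Its residual is the inequality of the day change between the oxygen levels, moderated by the other genes, and not a spread of replicates. Its p-values therefore do not measure the spread between separate cultures.

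Named genes were the 15 highest and lowest differences at 1% O2, 8 per direction with a 20% O2 difference within 0.25 of 0, 8 per direction past 2-fold at both levels, 6 per direction in opposite directions, up to 6 per list and a fixed panel, without joined, antisense, small RNA or uncharacterized symbols. Other genes, such as CCNB2, CXCL1, IL1A and FN1, were named as list members after their values were seen. Members and lists were chosen with earlier results of these data known. Shared words are sampled 50-base words of GENCODE 29 transcripts found in another gene, and coordinates and promoters are RefSeq's, GRCh38. Alternatives were library totals, DESeq2 1.42.0 size factors and test, the deposited normalized table as log2(value + 1), a prior count of 0.5, level limits of 10 and 1, no uncertain symbols, other filters, no oxygen term, and leaving out each library. The count test on reads recovered from the normalized table was chosen after seeing the data.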

Additional observations from a re-analysis of the deposited data

Results flagged for a closer look

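Genes past 2-fold in opposite directions at the 2 oxygen levels numbered 5 (0.0435% of those compared), and 3 of them met the naming rule. FAT4, a protocadherin gene (chromosome 4, 125314955 to 125492932), had 1027 counts at day 10 and 298 at day 1 of 1% O2, against 140 and 246 at 20% O2. Its log2 difference was 1.83 (1.65 to 2.02) at 1% O2 and −1.04 at 20% O2. ID3, an inhibitor of basic helix-loop-helix factors (chromosome 1, 23557926 to 23559501), had 89 counts at day 10 and 214 at day 1 of 1% O2, against 721 and 252 at 20% O2, differences of −1.20 (−1.59 to −0.85) and 1.27. FAM225B differed by −1.68 at 1% O2 and 1.33 at 20% O2, but 81.3% of its words are shared, and with FAM225A the differences were −0.52 and −0.05. With 1 library per condition, the difference between oxygen levels was not tested.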

How the results depend on the processing

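With the level limit at 1 in place of 5, 2808 genes passed the rule at 1% O2, 1904 of them higher, and 548 at 20% O2; 280 were higher and 29 lower at both levels and 39 went in opposite directions. With the limit at 10, 116 passed at 20% O2, 79 were higher and 6 lower at both, and 3 were opposite. The deposited table gave 135 at 20% O2, with 80 higher and 5 lower at both. Library totals left 469 genes lower at 1% O2 and 9 opposite; without uncertain symbols 3 were opposite. The share of called genes that were higher was 74.5% with library totals, 62.4% with DESeq2 size factors, and 52.9% and 67.8% with limits of 10 and 1. Of 284 named genes, 20 changed side of the rule with library totals, 2 with DESeq2 size factors, 6 with the deposited table and 0 with a prior count of 0.5, and 0 changed sign under these 4. Medians of 6 of 40 lists changed sign with library totals.

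The day test called 25 genes with a filter of 5 CPM, 396 with no filter, 75 with DESeq2 and 165 on recovered reads; without the oxygen term edgeR called 0 (682 at an unadjusted p under 0.05). Leaving out 1 library gave 7 to 5727 calls; a lone library is then assumed to vary like the others. The cause was not tested. No paired analysis was possible because each group has 1 library; the oxygen term of the day test already sets day 10 against day 1 within each oxygen level. Depth limits genes near 5 CPM, where 53 counts is the least that the higher library held.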
